A study of Mus musculus with 17 samples.

Results

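Inhibins and activins are hormones of the TGF-β family made in large amounts by ovarian follicles, and the genes described here encode their subunits, the proteins that bind them and their receptors. The 9 genes were listed by symbol for their roles, with earlier results of these data known: the subunit genes Inha, Inhba and Inhbb, the follistatins Fst and Fstl3, the receptors Acvr1b, Acvr2a and Acvr2b, and the co-receptor Tgfbr3. All 9 were found among the 25198 rows of the count table. The study used Smart-Seq2, which copies whole transcripts into cDNA, on bulk RNA of antral follicles of CD1 mice grown in eIVFG, an encapsulated culture in which follicles mature outside the ovary. Mice were 16 days old, follicles had grown for 8 days, and 3 follicles were pooled for each sample. In the 6 Tyrphostin libraries the follicles were exposed for 4 h to hCG, the hormone used to start ovulation, with 10 µM Tyrphostin-AG1478 dissolved in DMSO, a compound that blocks the kinase of the EGF receptor. The other 11 libraries are labelled Control. The labels give all samples the same treatment text, and it is not stated if the Control follicles were given hCG or DMSO.

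An activin is a pair of β subunits, βA from Inhba or βB from Inhbb, and an inhibin is 1 β subunit joined to the α subunit from Inha. Activins bind the type II receptors ActRIIA and ActRIIB, which recruit the type I receptor ALK4 and lead to phosphorylation of SMAD2 and SMAD3, while inhibin, held by the co-receptor betaglycan, occupies the type II receptors without starting that signal. Granulosa cells, which surround the oocyte, are the main ovarian source of inhibin, and follistatin binds activin and keeps it from its receptors.

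Samples were labelled with 1 of 2 batches: batch 1 held 6 Control and 3 Tyrphostin samples, batch 2 held 5 and 3. Libraries held 1820545 to 8291024 counts, and 3 counts, taken as the detection floor, equalled 0.336 to 1.64 CPM (counts scaled to library size by the TMM method and expressed per 10 to the power 6). All n count libraries, and nothing in the labels says that libraries came from separate cultures, so p-values measure the spread between these samples, which may be technical. The summed level of 9 granulosa markers was 211 to 522 CPM in Control and 1163 to 1987 CPM in Tyrphostin, but its defining marker Foxl2 was low, at 0 in 3 of 11 Control libraries and at most 4.66 CPM elsewhere. Summed oocyte markers (11 genes, Zp3 detected in every library) ran from 23.5 to 94.8 CPM in Control and from 22.5 to 245 CPM in Tyrphostin, with the highest value in Tyrphostin 6. Theca and stroma markers (9 genes, Cyp17a1 detected in every library) summed to 266 to 2163 CPM in Control and 273 to 3090 CPM in Tyrphostin, and endothelial markers (4 genes, Cdh5 detected in every library) to 8.33 to 87.9 and 8.77 to 31.9 CPM. Immune markers (5 genes) summed to 6.90 to 445 CPM in Control and 7.80 to 840 CPM in Tyrphostin, with Ptprc at 0 in 4 Control libraries and 1 Tyrphostin library. Both the stromal and the immune sums were highest in Tyrphostin 5. In these bulk samples fewer cells of a type and less RNA per cell cannot be told apart.

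Of the 9 genes, Inhbb, the βB subunit gene, rose 16.7-fold in Tyrphostin, and Fstl3, a follistatin-like binding protein, fell to 0.337 of its Control level. Inha and Inhba, by far the most abundant of the 9, did not pass the test, nor did Fst, Acvr1b, Acvr2a or Tgfbr3, and Acvr2b had too few counts to be tested. With batch as a term, edgeR's quasi-likelihood test called 1 of the 8 genes tested higher and 1 lower at an adjusted p under 0.05. Among all 9603 genes tested it called 10.6%, with 4.35% higher and 6.25% lower, and with 8 genes tested a count of 2 is too small to set their share apart from that background. The median log2 fold change was -0.02 over the 8 genes and 5.42e-05 over all genes tested.

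**Figure D1:**
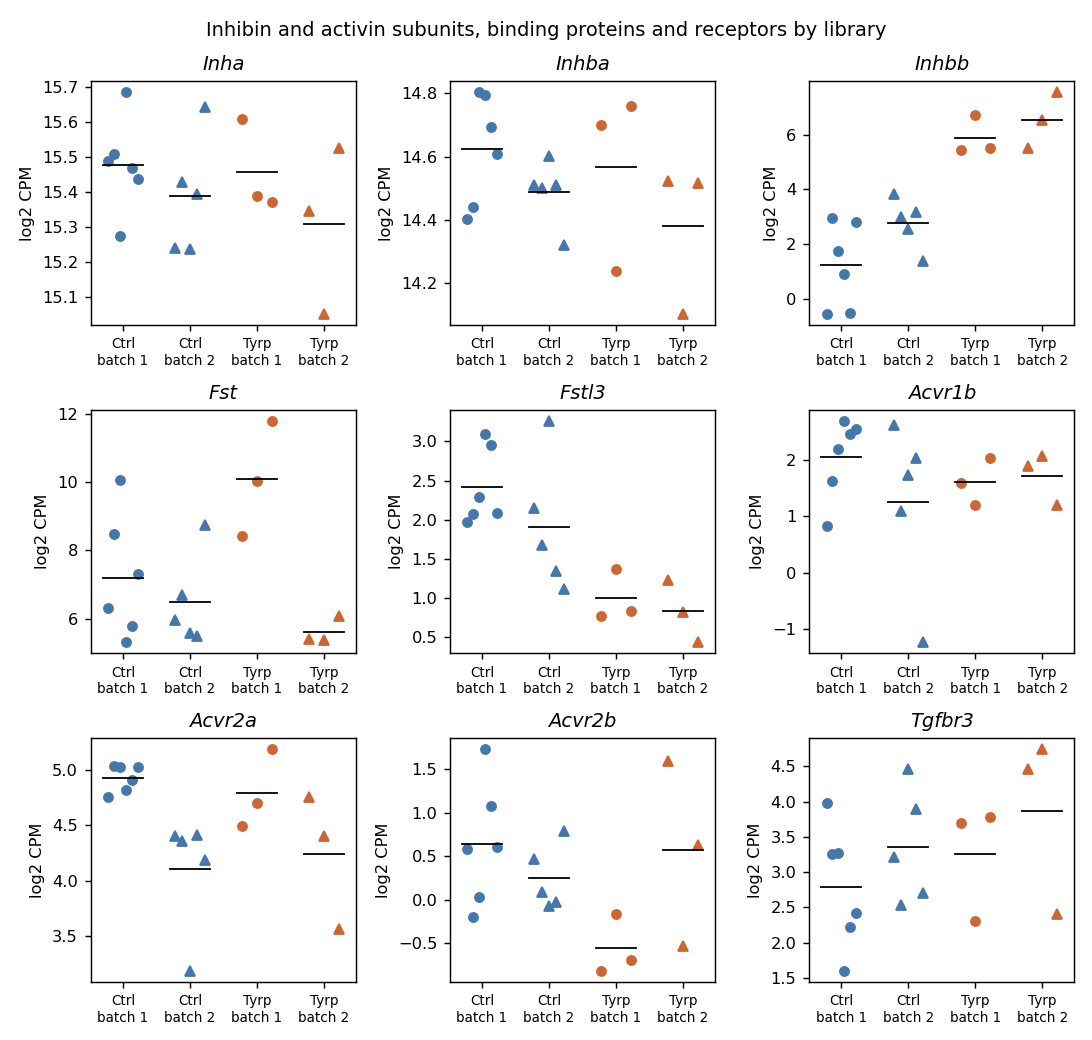
Level of each of the 9 genes in each library, in log2 CPM on an axis that differs between panels. Control and Tyrphostin libraries are side by side and the batches are marked by symbol. A prior count of 2 was added before taking logs, which lifts the lowest levels. All 6 Tyrphostin libraries lie above every Control library for Inhbb, and Fst reaches 3605 CPM in Tyrphostin 3 while the Tyrphostin libraries of batch 2 lie at 40.7 to 67.1 CPM.

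Inha, at chr1:75507077-75510366 on the plus strand (GRCm38), held more counts than any other gene of the table. Its level ran from 38669 to 52659 CPM in Control, with a median of 44316 CPM, and from 33998 to 49932 CPM in Tyrphostin, with a median of 42639 CPM. The groups overlapped, with 1 Tyrphostin library below every Control library. For Inha the log2 fold change was -0.05 ± 0.15 (SE), with an adjusted p of 0.894 in edgeR's quasi-likelihood test. It turned to 0.09 when libraries were scaled by their total count, a scaling that moved the median of all genes tested to 0.15. The 95% interval for the change of the α subunit transcript, 1.96 SE on either side, ran from -0.34 to 0.25 on the log2 scale.

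Inhba encodes the βA subunit and lies at chr13:16011851-16031621 on the plus strand. It was the third most abundant gene by total count. Control libraries ran from 20472 to 28600 CPM, with a median of 23323 CPM, and Tyrphostin libraries from 17596 to 27762 CPM, with a median of 23502 CPM. The medians differed by less than the spread within either group, although 2 of 6 Tyrphostin libraries fell below every Control library. For Inhba the log2 fold change was -0.07 ± 0.15, with an adjusted p of 0.832 in edgeR's quasi-likelihood test and a 95% interval from -0.37 to 0.23. With total count scaling it turned to 0.07.

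Inhbb, at chr1:119415465-119422248 on the minus strand, gave 1 to 77 counts in each Control library and 231 to 999 in each Tyrphostin library. Control levels ran from 0.270 to 14.0 CPM, with a median of 5.51 CPM and a mean of 5.15 ± 4.21 CPM (SD, n = 11). The Tyrphostin libraries of batch 1 stood at 42.9, 104 and 45.1 CPM, and those of batch 2 at 44.7, 91.9 and 186 CPM. All 6 Tyrphostin libraries lay above every Control library, a separation seen in 49 of the 9603 genes tested (0.51%). Its log2 fold change was 4.06 ± 0.46, with an adjusted p of 2.07e-05 in edgeR's quasi-likelihood test.

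The rise of Inhbb was present in each batch on its own, although the batches share no libraries. Within batch 1, where edgeR's quasi-likelihood test called 6.73% of 9423 genes, the log2 fold change of Inhbb was 4.39 ± 0.64, with an adjusted p of 0.00235. Within batch 2, where it called 0.621% of 9830 genes, the log2 fold change was 3.78 ± 0.51, with an adjusted p of 0.00887. The difference between those effects, tested as an interaction, was -0.61 ± 0.96 on the log2 scale, with an adjusted p of 1. The library with the highest Inhbb level, Tyrphostin 6, also had the highest summed oocyte markers, at 245 CPM, and their part in the level was not tested. Without each library in turn the log2 fold change of Inhbb stayed between 3.80 and 4.29, and without Tyrphostin 6 its adjusted p in edgeR's quasi-likelihood test was 0.000118.

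The β subunit genes differed in level and in response, and their promoters are shown to set them side by side, with that of Fstl3, the other gene that passed the test. RefSeq (GRCm38.p6) gave a start site for 7 of the 9 genes. The 250 bases before the start are printed 5′ to 3′ on the strand of the gene, and capitals mark matches to the motifs searched. The windows are chr13:16011601-16011850 on the plus strand for Inhba, chr1:119422249-119422498 on the minus strand for Inhbb, and chr10:79777024-79777273 on the plus strand for Fstl3.
Inhba: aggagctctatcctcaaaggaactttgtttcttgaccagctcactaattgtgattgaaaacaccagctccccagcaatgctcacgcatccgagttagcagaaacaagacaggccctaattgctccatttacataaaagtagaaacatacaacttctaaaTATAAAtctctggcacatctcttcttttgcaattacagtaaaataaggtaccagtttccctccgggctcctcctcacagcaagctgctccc
Inhbb: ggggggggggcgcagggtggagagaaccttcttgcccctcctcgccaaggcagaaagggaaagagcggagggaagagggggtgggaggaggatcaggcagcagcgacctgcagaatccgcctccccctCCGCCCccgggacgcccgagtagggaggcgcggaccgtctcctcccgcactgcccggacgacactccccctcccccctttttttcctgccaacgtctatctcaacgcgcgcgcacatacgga
Fstl3: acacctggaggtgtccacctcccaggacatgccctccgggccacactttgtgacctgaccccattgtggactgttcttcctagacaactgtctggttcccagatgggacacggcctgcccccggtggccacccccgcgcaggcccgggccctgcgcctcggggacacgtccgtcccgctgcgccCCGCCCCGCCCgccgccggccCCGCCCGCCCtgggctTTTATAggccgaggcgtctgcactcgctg
The promoter of Inhba had a GC content of 43.2% and 3 CpG sites, against 68.0% and 21 for Inhbb and 71.2% and 22 for Fstl3. Over 32851 RefSeq promoters of the same length the median GC content was 52.4% and the median was 6 CpG sites. Of these promoters, 19.0% had a lower GC content than Inhba, 87.8% a lower one than Inhbb and 92.2% a lower one than Fstl3.

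The motifs, searched on both strands, were the cyclic AMP element TGACGTCA (in 1.55% of all promoters), the AP-1 site TGACTCA (4.46%), the NR5A site AAGGTCA (4.08%), the GATA site AGATAA (9.99%), the GC box GGGCGG (32.7%) and the TATA box TATAAA (12.4%). Inhba had 1 match, a TATA box at positions -91 to -86 from the start, and Inhbb had 1, a GC box read on the other strand at -122 to -117. Fstl3 had 4 GC box matches between -66 and -36, in overlapping pairs, and a TATA box on the other strand at -29 to -24. The letters of the first 4 motifs were not in these 3 windows, which says nothing about the factors that bind them elsewhere.

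Counts per kb of the longest annotated transcript allow the levels of different genes to be set side by side. On this scale the Control medians fell in the order Inha (30045 CPM per kb), Inhba (3650), Fst (26.8), Acvr2a (4.69), Fstl3 (1.96), Tgfbr3 (1.45), Inhbb (1.30), Acvr1b (0.837) and Acvr2b (0.302). In Control the ranges of Inha, Inhba and Fst each stood apart from those of all other members, while neighbours from Acvr2a downwards overlapped. The order of neighbours depends on the length used: with the mean transcript length Tgfbr3 lay above Fstl3. In Tyrphostin the median of Inhbb was 16.1 CPM per kb, above those of Acvr2a (4.20), Tgfbr3 (2.12), Fstl3 (0.694), Acvr1b (0.665) and Acvr2b (0.116). Fst stood at 70.9, Inhba at 3678 and Inha at 28908 CPM per kb.

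Per kb, Inhbb made up 0.00160% to 0.0900% of the β subunit transcripts in Control, with a median of 0.0333%, and 0.242% to 1.18% in Tyrphostin, with a median of 0.531%. The ranges did not overlap, yet Inhba supplied nearly all β transcripts in both groups. The ratio of Inha to the sum of both β subunits ran from 6.00 to 10.8 in Control, with a median of 7.99, and from 6.60 to 9.54 in Tyrphostin, with a median of 8.21. These ratios overlapped, and with the mean in place of the longest transcript length their medians were 4.95 and 5.10. The ratio of Fst to the β subunits was 0.00301 to 0.0815 in Control and 0.00385 to 0.283 in Tyrphostin. These ratios are descriptions of transcripts, not of assembled hormones.

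**Figure D2:**
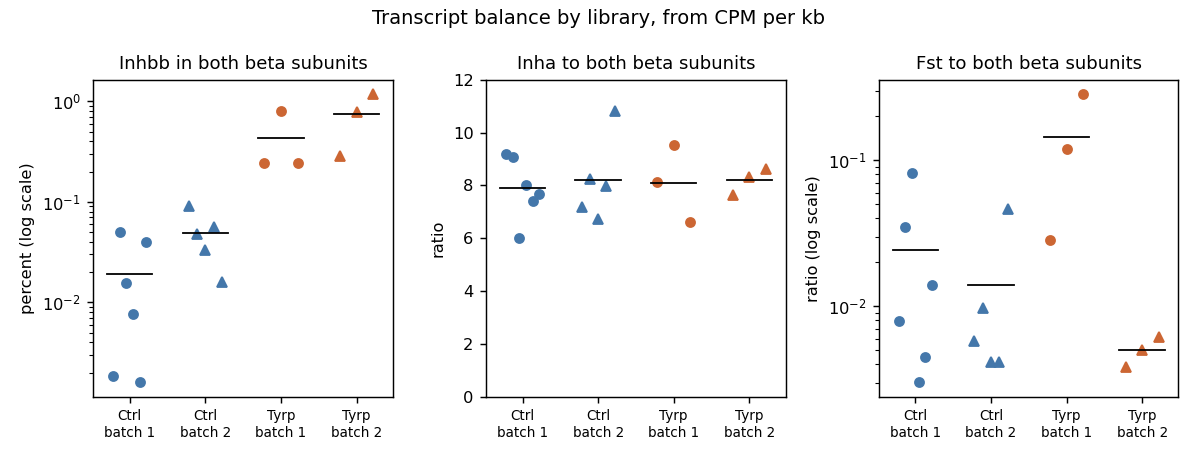
Balance of subunit transcripts in each library, per kb of the longest transcript, with Control and Tyrphostin libraries side by side: the share of Inhbb among the β subunits in percent (log axis), and the ratios of Inha and of Fst to the β subunits. The share of Inhbb reaches 0.0900% at most in Control and is at least 0.242% in Tyrphostin, while the ratio of Inha to the β subunits overlaps between the groups.

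Fst encodes follistatin and lies at chr13:114452290-114458951 on the minus strand. Its coefficient of variation, 140% in Control and 163% in Tyrphostin, was the highest of the 9 genes in each group. In Control of batch 1 it ran from 39.2 to 1066 CPM, with a median of 118 CPM, and in the Tyrphostin libraries of that batch it stood at 347, 1061 and 3605 CPM. In batch 2 the Control libraries stood at 47.2, 44.5, 434, 62.1 and 104 CPM and the Tyrphostin libraries at 41.6, 40.7 and 67.1 CPM. The groups overlapped in each batch, with Tyrphostin higher by median in batch 1 and lower in batch 2.

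The log2 fold change of Fst over both batches was 1.05 ± 1.02, with an adjusted p of 0.598 in edgeR's quasi-likelihood test. It was 2.54 ± 1.15 within batch 1 (adjusted p = 0.261) and -1.46 ± 0.77 within batch 2 (adjusted p = 0.559), both from edgeR's quasi-likelihood test. The interaction was -3.98 ± 1.59 on the log2 scale, with an unadjusted p of 0.0256 and an adjusted p of 1 in edgeR's quasi-likelihood test. That test called 0 of 9603 genes (0%) for the interaction, while 342 genes (3.56%), Fst alone among the 9, had an unadjusted p under 0.05; DESeq2 and limma-voom also called 0, with 413 and 336 genes at an unadjusted p under 0.05. With no filter on low counts edgeR's quasi-likelihood test called 79 of 21622 genes for the interaction, Fst among them at -4.01 (adjusted p = 9.09e-16). That size is close to the -3.98 of the main fit, so the p-value moved and the estimate hardly did. Why the p-value moved was not tested. Single libraries decided the value: without Tyrphostin 3 the log2 fold change over both batches was 0.01, and without Control 3 it was 1.73. Within batch 1 it was 1.27 without Tyrphostin 3 and 3.62, with an adjusted p of 0.0482 in edgeR's quasi-likelihood test, without Control 3, and within batch 2 it was -0.36 without Control 9. With no batch term it was 1.96, with Control libraries summed by the 5 sets in their names it was -0.19, and in neither case did it pass the test.

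Fst was followed further because of this spread, a choice made after its values were seen. Likeness of pattern was measured by the correlation of log2 CPM over 17 libraries, after the mean of each treatment and batch was taken away, among 6333 genes of sufficient level. The gene most like Fst was Rac1, which encodes a small GTPase of the cytoskeleton, with a Pearson r of 0.97 and a Spearman rank correlation of 0.94. Without Control 3 and Control 9 the r was 0.95. In Control, Rac1 was highest in the libraries highest in Fst, at 308 CPM in Control 3 and 101 CPM in Control 9, and stood at 15.0 to 93.7 CPM in the others. In Tyrphostin it stood at 53.8, 211 and 409 CPM in batch 1 and at 17.01, 16.4 and 24.6 CPM in batch 2. Both values of a library share its depth and preparation. The log2 fold change of Rac1 was 0.49 ± 0.73, with an adjusted p of 0.751 in edgeR's quasi-likelihood test.

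**Figure D3:**
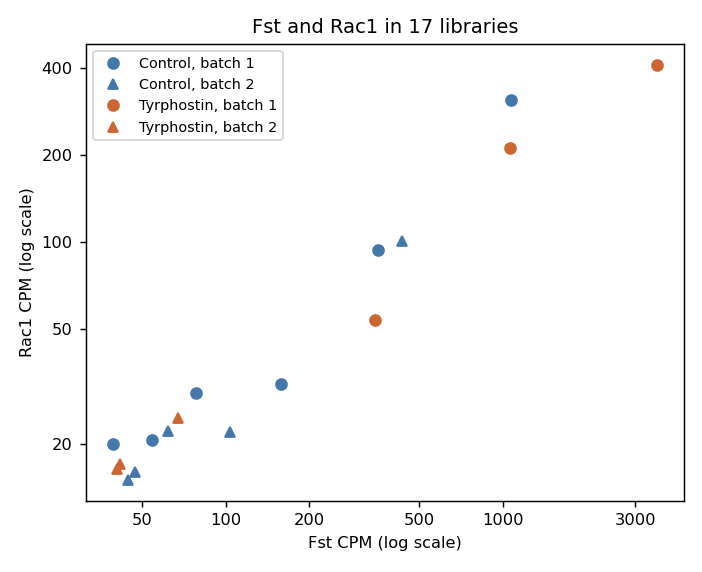
Level of Rac1 against level of Fst in each of the 17 libraries, both in CPM on log axes, with treatment by colour and batch by symbol. The points lie along 1 band from 15.0 to 409 CPM of Rac1, with Control 3 and Tyrphostin 3 near its upper end.

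Fstl3 encodes a second activin-binding protein of the follistatin family and lies at chr10:79777272-79782630 on the plus strand. It was a low gene, with 4 to 35 counts in each Control library and 5 to 14 in each Tyrphostin library. Control levels ran from 1.74 to 9.19 CPM, with a median of 3.83 CPM and a mean of 4.63 ± 2.48 CPM (SD, n = 11). The Tyrphostin libraries stood at 1.29, 2.18 and 1.37 CPM in batch 1 and at 1.92, 1.35 and 0.933 CPM in batch 2, with a mean of 1.51 ± 0.456 CPM (SD, n = 6). Of these, 4 of 6 lay below every Control library. Against the Control libraries of the same batch, 3 of 3 lay below in batch 1 and 2 of 3 in batch 2.

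The log2 fold change of Fstl3 was -1.57 ± 0.36, with an adjusted p of 0.00622 in edgeR's quasi-likelihood test. Fstl3 passed the filter on low counts only through the Control libraries, the group in which it was higher. With no filter on low counts its log2 fold change was -1.51 (adjusted p = 0.0044, edgeR's quasi-likelihood test). Within batch 1 the log2 fold change of Fstl3 was -1.67 ± 0.45 (adjusted p = 0.0295) and within batch 2 -1.45 ± 0.60 (adjusted p = 0.393) in edgeR's quasi-likelihood test, and the interaction was 0.22 ± 0.74 (adjusted p = 1). Over both batches the call held without each of the 17 libraries in turn, with log2 fold changes from -1.71 to -1.34. Within batch 1 it was lost without Control 4, Control 5 or any 1 of the 3 Tyrphostin libraries, with adjusted p up to 0.106 in edgeR's quasi-likelihood test. Of the 2445 exon bases of Fstl3, 1157 overlap exons of Prss57, a gene for a serine protease, on the other strand. Prss57 also fell, by 1.69 on the log2 scale (SE 0.42, adjusted p = 0.0103 in edgeR's quasi-likelihood test), to 1.01 ± 0.605 CPM (SD, n = 6) against 3.18 ± 1.42 CPM in Control (SD, n = 11). Like Fstl3, Prss57 passed the filter on low counts through the Control libraries. Whether counting used strand is not given in the sources used here. Without strand, reads within the bases that the 2 genes share cannot be told apart.

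Per kb, receptor transcripts were low next to those of Inha and Inhba. Acvr1b, which encodes the activin type I receptor ALK4, lies at chr15:101174067-101213684 on the plus strand and gave 0 to 33 counts in each library. Control levels ran from 0 to 6.09 CPM, with a median of 3.70 CPM, and Tyrphostin levels from 1.86 to 3.77 CPM, with a median of 2.94 CPM. The Control library at 0 had a floor of 3 counts, so Acvr1b was not detectable there at this depth rather than absent. No Tyrphostin library lay outside the Control range, and the log2 fold change was -0.31 ± 0.40, with a 95% interval from -1.09 to 0.47 and an adjusted p of 0.703 in edgeR's quasi-likelihood test.

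Acvr2a encodes the type II receptor ActRIIA, at chr2:48814109-48903269 on the plus strand, and had the highest median per kb of the 4 receptor and co-receptor genes among the 9, in each group. It ran from 8.66 to 32.5 CPM in Control, with a median of 26.7 CPM, and from 11.4 to 36.1 CPM in Tyrphostin, with a median of 23.9 CPM. The log2 fold change was 0.01 ± 0.19, with a 95% interval from -0.37 to 0.39 and an adjusted p of 0.981 in edgeR's quasi-likelihood test, and its sign changed without single libraries. Of its 5686 exon bases, 446 overlap exons of Orc4 on the other strand.

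Among the Control libraries alone, the level of Acvr2a separated by batch. It ran from 26.7 to 32.5 CPM in the 6 libraries of batch 1, and in the 5 of batch 2 it stood at 8.66, 20.8, 17.8, 20.7 and 20.1 CPM. The batches did not overlap in Control, and how many of all genes tested separated in this way was not counted. The log2 difference, batch 2 against batch 1, was -0.73 ± 0.23, with an adjusted p of 0.0407 in edgeR's quasi-likelihood test. The fit took the Control libraries as independent, although their names place them in 5 sets, each within 1 batch. No fit by set was made for this comparison. That test called 14% of 6680 genes between these batches, and 1 of the 4 members tested. The call was lost without any 1 of 9 of the 11 Control libraries, all but Control 1 and Control 7, with adjusted p up to 0.0819 in edgeR's quasi-likelihood test. Of the other members tested there, Inha differed by -0.06, Inhba by -0.11 and Fst by -1.09 on the log2 scale, and none passed. The difference in Fst was 0.01 without Control 3 and -2.15 without Control 9. Inhbb did not pass the filter on low counts in Control, where its mean was 3.15 ± 3.12 CPM (SD, n = 6) in batch 1 and 7.56 ± 4.35 CPM (SD, n = 5) in batch 2, with overlapping ranges. With no filter on low counts the log2 difference of Inhbb was 1.37 ± 0.39 (adjusted p = 0.0119) and Acvr2a lost its call (adjusted p = 0.0527), both in edgeR's quasi-likelihood test. Acvr2a also lost it with total count scaling (adjusted p = 0.148 in edgeR's quasi-likelihood test).

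Acvr2b encodes the type II receptor ActRIIB, at chr9:119402118-119434995 on the plus strand. Each library held 1 to 19 of its counts, from 0.445 to 2.90 CPM in Control and from 0.143 to 2.61 CPM in Tyrphostin. These levels are near the detection floor, and Acvr2b was not tested in the main fit. The groups overlapped, with 3 of 6 Tyrphostin libraries below every Control library. With no filter on low counts its log2 fold change was -0.36 (adjusted p = 0.826, edgeR's quasi-likelihood test). Tgfbr3 encodes betaglycan, the inhibin co-receptor, at chr5:107106570-107289629 on the minus strand. It ran from 2.61 to 21.5 CPM in Control, with a median of 8.82 CPM, and from 4.51 to 26.4 CPM in Tyrphostin, with a median of 12.9 CPM. The groups overlapped, with 2 Tyrphostin libraries above every Control library, and the log2 fold change was 0.51 ± 0.38, with a 95% interval from -0.25 to 1.26 and an adjusted p of 0.464 in edgeR's quasi-likelihood test.

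**Figure D4:**
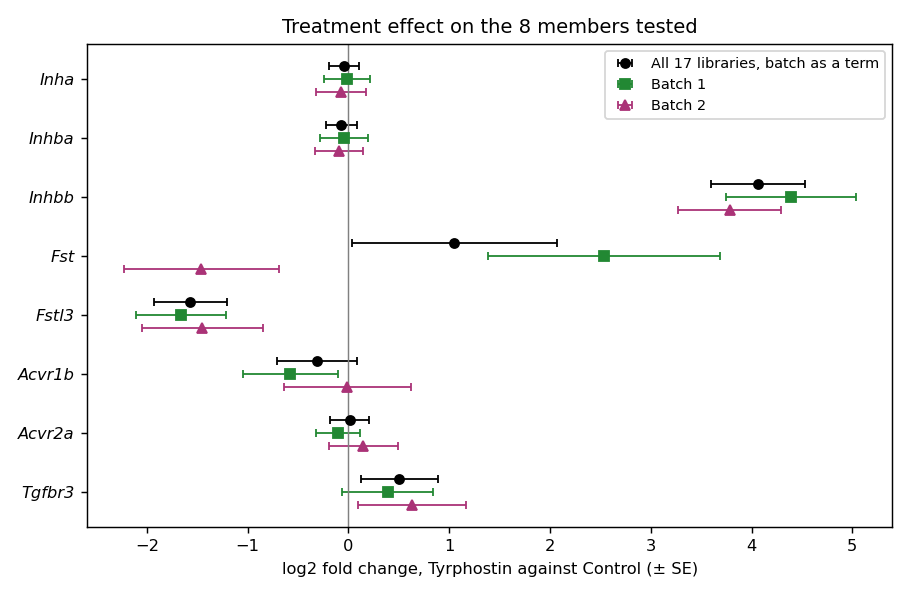
Log2 fold change of each tested member, Tyrphostin against Control, over both batches and within each batch, with bars of 1 SE. Inhbb lies near 4 in all 3 fits and Fstl3 below 0 in all 3, while Fst is above 0 in batch 1 and below 0 in batch 2.

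The rest of the pathway was read from 37 other genes for making, binding or transmitting TGF-β family ligands, not only activin and inhibin. Of these, 28 passed the filter on low counts, 0 rose and 2 fell in edgeR's quasi-likelihood test, against 4.35% higher and 6.25% lower over all genes. Their median log2 fold change was -0.12, with a range from -1.23 to 0.55. DESeq2 and limma-voom each called 3, adding Pcsk6. Furin, which encodes a convertase that cuts TGF-β family precursors, fell to 11.7 ± 2.80 CPM (SD, n = 6) against 28.5 ± 11.98 CPM in Control (SD, n = 11), with 3 of 6 Tyrphostin libraries below every Control library. Its log2 fold change was -1.23 ± 0.24 (adjusted p = 0.00122, edgeR's quasi-likelihood test). Within batch 1 it was -1.33 (adjusted p = 0.012) and within batch 2 -1.11 (adjusted p = 0.207), by the same test. Bambi, a decoy receptor without a kinase domain, went from 42.9 ± 12.4 CPM to 26.8 ± 11.0 CPM, a log2 fold change of -0.72 ± 0.21 (adjusted p = 0.0272, edgeR's quasi-likelihood test). Bambi stood at -0.40 in batch 1 (adjusted p = 0.356) and -1.07 in batch 2 (adjusted p = 0.195) in edgeR's quasi-likelihood test, and passed in neither. The call on it was lost without Tyrphostin 5 (adjusted p = 0.0594) or Tyrphostin 6 (adjusted p = 0.0843), and without Control 7 the count of genes that fell was 4, with Smad3 and Skil added, all by edgeR's quasi-likelihood test. The Bambi call was also lost with total count scaling, with no batch term and with Control libraries summed by set, at adjusted p of 0.097, 0.121 and 0.0828 in edgeR's quasi-likelihood test.

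By role, 1 of 4 convertases fell, with a median log2 fold change of -0.49 over the 4. Of the others, Pcsk6 had a log2 fold change of -0.71 (adjusted p = 0.0626, edgeR's quasi-likelihood test), while Pcsk5 stood at -0.28 and Pcsk7 at -0.19. None of 8 other receptors tested, 3 other ligands tested and 5 signal transducers tested passed, with medians of 0.07, -0.06 and -0.15. Smad3, which carries the activin signal to the nucleus, had a log2 fold change of -0.51 (adjusted p = 0.0832, edgeR's quasi-likelihood test). The 6 corepressors and ubiquitin ligases had a median of -0.16, and none passed.

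**Figure D5:**
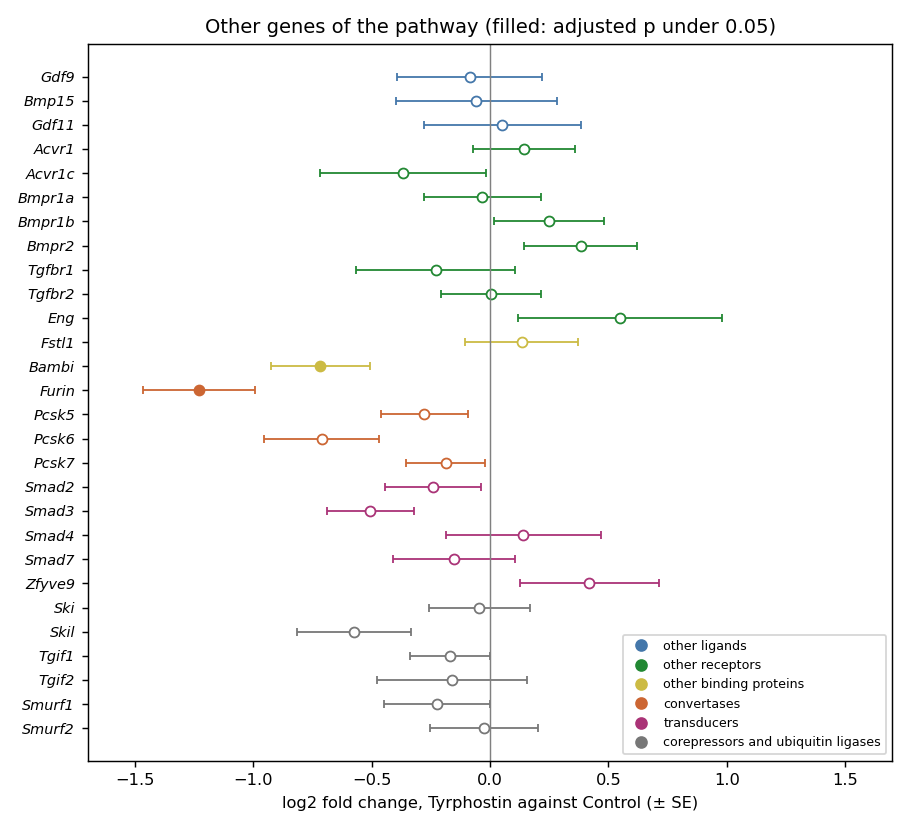
Log2 fold change of the 28 other pathway genes tested, Tyrphostin against Control, with bars of 1 SE, coloured by role, filled where the adjusted p is under 0.05. The 2 filled points are Furin at -1.23 and Bambi at -0.72.

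Of 12 transcription factors that textbooks place on inhibin subunit or follistatin genes, 10 were tested, 3 rose and 1 fell, against 4.35% higher and 6.25% lower over all genes tested. Nr5a2, which encodes LRH-1, rose in Tyrphostin to 202 ± 36.3 CPM (SD, n = 6) against 44.7 ± 9.79 CPM in Control (SD, n = 11). The log2 fold change of Nr5a2 was 2.18 ± 0.16 (adjusted p = 8.38e-09, edgeR's quasi-likelihood test). Like Inhbb, it lay above every Control library in 6 of 6 Tyrphostin libraries. Gata4, a GATA factor of granulosa cells, rose by 2.32 ± 0.48 on the log2 scale (adjusted p = 0.00461, edgeR's quasi-likelihood test), with 3 of 6 libraries above every Control library. That call was lost with Control libraries summed by set, at a log2 fold change of 2.01 (adjusted p = 0.146, edgeR's quasi-likelihood test). Foxo1, a forkhead factor, rose by 1.30 ± 0.27 (adjusted p = 0.00266, edgeR's quasi-likelihood test), with 5 of 6 above. Within batches, Gata4 had log2 fold changes of 3.14 and 1.36 (adjusted p = 0.000502 and 0.457) and Foxo1 of 1.77 and 0.81 (adjusted p = 0.00404 and 0.472) in batch 1 and batch 2, by edgeR's quasi-likelihood test. Egr1, an immediate early zinc finger factor, fell by 1.71 on the log2 scale (SE 0.22, adjusted p = 1.37e-05, edgeR's quasi-likelihood test), with 6 of 6 below every Control library, a separation seen in 96 of the 9603 genes tested (1%). The granulosa marker sums above include Nr5a2 and Gata4, so they are not a fully separate measure. Their median was 361 CPM in Control and 1497 CPM in Tyrphostin, while mean Gata4 was 22.45 and 93.3 CPM. Most of the rise in the sums therefore lay in markers other than Nr5a2 and Gata4. Not every marker rose: Nr5a1, also in the sums, stood at 52.8 ± 8.48 CPM in Control and 48.7 ± 9.84 CPM in Tyrphostin (SD). Apart from Foxl2, the remaining markers are not given singly here.

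For the members that passed the test, the genes of most similar pattern were named by the same likeness over 17 libraries. For Inhbb these were Coq9 (r = 0.84), which acts in ubiquinone synthesis, Arhgef28 (r = 0.84) and Vrk1 (r = 0.76), a nuclear kinase. Without Control 1 and Control 5, the libraries in which Inhbb had a single count, these were 0.75, 0.75 and 0.70. For Fstl3 they were Golgb1 (r = 0.88), which encodes a Golgi membrane protein, Timp3 (r = 0.87), an inhibitor of metalloproteinases, and Rab31 (r = 0.86), a small GTPase. Without Control 7 and Control 4 these were 0.79, 0.72 and 0.80. These are descriptions, the highest of 6333 correlations for each member, between genes that share a library's depth and preparation.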

How the data were processed

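Smart-Seq2 libraries of 11 Control and 6 Tyrphostin samples were read from 1 table of whole-number counts per gene, deposited by the authors. Per the submitters' processing notes, STAR and HTSeq were used with GRCm38; versions, annotation and strand setting are not given in the sources used here. Every column matched a sample. Counts were tested in R 4.3.3 with edgeR 4.0.16 (TMM scaling, filterByExpr, robust quasi-likelihood F test, batch as a term), fitted over all genes passing the filter, with Benjamini-Hochberg adjustment over all of them. SE is the log2 fold change divided by the square root of F. Floors and intervals cover counting error or the model only, since reads carry no molecular identifiers. No pair of replicates agreed within sampling noise (chi-square divided by its degrees of freedom, 7.85 to 57 over 31 pairs). Gene positions came from GENCODE M21. limma 3.58.1 and DESeq2 1.42.0, other scalings, filters, thresholds and designs, and leaving out libraries were the alternatives; leaving out Control 6, Control 7 and Tyrphostin 5 together was added after seeing the data. The scripts were tested on simulated data. Members and lists were chosen with earlier results of these data known. Named were all 9 members, up to 6 called genes of each list by p, defining markers, and the 3 genes most like each called member, with Fst and overlapping genes added after their values were seen.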

Additional observations from a re-analysis of the deposited data

Results flagged for a closer look

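In 4 of 27 groups of 5 or 6 libraries examined over the members, Dixon's test found a library far from the others of its group. About 1.35 would be picked out by chance if levels were normally distributed, since 1 group in 20 then is. The Tyrphostin groups held the libraries of both batches. Fst stood at 1066 CPM in Control 3, against 39.2 to 354 CPM in the other Control libraries of batch 1. It stood at 434 CPM in Control 9, against 44.5 to 104 CPM in the rest of that batch's Control libraries. In Tyrphostin 3 it stood at 3605 CPM, against 40.7 to 1061 CPM in the other Tyrphostin libraries. Acvr2a stood at 8.66 CPM in Control 7, against 17.8 to 20.8 CPM in the other Control libraries of batch 2. No explanation of these values was tested.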

How the results depend on the processing

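Inhbb was called in 13 of 13 alternatives that tested it (log2 fold change 4.00 to 4.33) and Fstl3 in 12 of 13 (-1.60 to -1.27). With at least 10 counts in every library neither was tested, so 0 members were called, overall and in each batch. Of the other pathway genes, 1 was called instead of 2 at an adjusted p under 0.01, with a minimum log2 change of 1 in either direction, with total count scaling, with no batch term and with Control libraries summed by set, and 1 to 4 with each library left out in turn. Within batch 1, 1 member was called with total count scaling and 1 to 3 with libraries left out. For the interaction, 1 was called with no filter on low counts (Fst, -4.01, adjusted p = 9.09e-16 by edgeR), at nearly the size of the main fit, -3.98. Between Control batches 0 were called with total count scaling, 1 with no filter (Inhbb in place of Acvr2a), and 0 to 1 with libraries left out. Signs turned for Inha (0.0939 with total count scaling, 0.00372 with no filter, -0.0887 to 0.0145 with libraries left out), Inhba (0.0704 with total count scaling), Fst (-0.19 with Control sets summed; between Control batches -2.15 to 0.0131 with libraries left out), Acvr2a (-0.0278 by limma-voom, -0.0385 with no batch term, -0.0794 with Control 6, Control 7 and Tyrphostin 5 all left out, -0.12 to 0.12 with libraries left out) and the Fstl3 interaction (-0.10 to 0.76). With mean transcript length the ratio of Inha to β subunits was 4.95 in Control and 5.10 in Tyrphostin. The causes were not tested.

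Replicate numbers were not taken to pair the samples, since numbers 4 to 6 cross the batches. Same-numbered libraries correlated at -0.17 to 0.61 (0.058 to 0.43 with batch means also taken away, 3 of 6 over 0.1). Differently numbered libraries were not compared, so these values cannot decide whether numbers 1 to 3 are pairs. In numbers 4 to 6 the Control libraries are of batch 1 and the Tyrphostin libraries of batch 2. A replicate block with batch as a term therefore takes the treatment effect from numbers 1 to 3 only, all of batch 1. With the replicate block, 2 members (Inhbb, 4.33, and Fst, 1.83, adjusted p = 0.000557 by edgeR) and 0 other pathway genes were called, and Fstl3 stood at -1.27 (adjusted p = 0.151 by edgeR). Under it Inha was 0.0318, Inhba 0.0162, Acvr1b 0.0293, Acvr2a -0.15 and Tgfbr3 -0.25. Depth limits Acvr2b, Acvr1b and Fstl3 most, with 35 counts or fewer in each library.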

Other observations

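Adgrl2, an adhesion receptor gene, and Oaf were the next most like Fst after Rac1 over the 17 libraries, each with a Pearson r of 0.88, and of 0.83 without Control 3 and Control 9. Their log2 fold changes, Tyrphostin against Control, were -0.57 ± 0.29 (adjusted p = 0.236) and 0.71 ± 0.78 (adjusted p = 0.65) in edgeR's quasi-likelihood test. Esr2, which encodes an estrogen receptor of granulosa cells, had a log2 fold change of 0.71 ± 0.29 (adjusted p = 0.128), and Fos one of -0.32 ± 0.19 (adjusted p = 0.323), both in edgeR's quasi-likelihood test. All 4 were chosen after their values were seen.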
